A study of Mus musculus with 28 samples.

Results

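The genes described here are the metalloproteases and their inhibitors: every row of the deposited count table whose symbol is Mmp, Timp, Adam, Adamts or Adamtsl followed by a number and at most 1 letter. The rule took 83 of 39152 gene symbols. They were 22 matrix metalloproteases (Mmp), 4 tissue inhibitors of metalloproteases (Timp), 33 members of the Adam family, 19 of the Adamts family and 5 Adamts-like genes (Adamtsl). The rule used symbols only and no measured value. A member was counted as expressed at a mean of 1 or more CPM (counts scaled by the TMM-scaled library size) over all libraries of a ventricle, which held for 47 members in the left ventricle (LV) and for the same 47 plus Adam33 and Adamts4 in the right ventricle (RV).

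Bulk RNA sequencing was run on LV and RV tissue of C57BL6 mice aged 3 to 10 months, in the study's model of arrhythmogenic right ventricular cardiomyopathy. All mice carried floxed alleles of Pkp2, which codes for the desmosome protein plakophilin-2, on both chromosomes. The cKO arm (CardiacKO, given HBSS as vehicle) also carried a tamoxifen-activated Cre-ER(T2) driven by the αMyHC promoter, so that the deletion was limited to cardiomyocytes. The 3E13 and 6E13 arms had the same genotype and received a single retro-orbital dose of TN-401, an AAV9 vector with human PKP2, at 3E13 or 6E13 vg/kg 1 week before tamoxifen. WT mice were Cre-negative Pkp2 fl/fl littermates given HBSS. The study states that heart tissue was collected 9 weeks after tamoxifen, but the labels do not give the week of each animal. In other experiments of the study, vehicle-treated cKO mice died before that time. Whether survival or week of collection differed between the arms sequenced here could not be checked. LV libraries came from 4 cKO, 4 3E13, 3 6E13 and 5 WT mice, and RV libraries from 4 cKO, 2 3E13, 3 6E13 and 3 WT mice. The 28 libraries came from 16 animals, and animals are named below by arm and number.

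Matrix metalloproteases are zinc enzymes, made as inactive precursors, that cut collagens, elastin, proteoglycans and other proteins of the extracellular matrix. Timps block them by binding the active site, and Timp3 also blocks several Adam and Adamts enzymes. Adams sit in the cell membrane and shed growth factors, cytokines and receptors, while the secreted Adamts enzymes trim procollagens and cut large proteoglycans, and Adamts-like proteins lack the protease part. In the heart these genes are known from remodeling of the matrix after injury and overload, and much of their RNA comes from fibroblasts, macrophages and vessels rather than from muscle cells.

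Libraries held 19364764 to 39381176 counts, with 19364764 to 23726851 in RV cKO libraries and 23773528 to 30779591 in RV WT libraries. Mouse Pkp2 averaged 42.8 ± 10.7 CPM in LV cKO libraries (SD, n = 4) and 112 ± 6.90 CPM in LV WT libraries (n = 5), and 34.4 ± 4.53 (n = 4) against 115 ± 6.00 (n = 3) in the RV. The human PKP2 row was at 0 in every cKO and WT library and averaged 296 ± 90.1 (3E13, n = 4) and 413 ± 107.1 (6E13, n = 3) CPM in the LV and 259.5 ± 24.9 (3E13, n = 2) and 355 ± 95.9 (6E13, n = 3) CPM in the RV. Marker genes of several cell types moved with the arms, while those of endothelium overlapped between cKO and WT. Summed CPM of 12 resting fibroblast markers ran from 831 to 1755 in LV cKO and 732 to 939 in LV WT libraries, and from 2073 to 2927 in RV cKO and 911 to 1142 in RV WT libraries. Macrophage and monocyte markers, 15 of 16 found in the table, ran from 375 to 1477 (cKO) against 172 to 213 (WT) in the LV and from 643 to 1160 against 226 to 276 in the RV. The 10 cardiomyocyte markers summed to 36390 to 88681 (cKO) against 109675 to 121903 (WT) in the LV and 35532 to 72963 against 103734 to 122074 in the RV. The 8 atrial muscle markers summed to 210.01 to 603 CPM in LV cKO and 16.1 to 69.9 in LV WT libraries, and to 259 to 1896 in RV cKO and 28.5 to 49.6 in RV WT libraries. Endothelium markers summed to 878 to 1187 CPM (cKO) against 1011 to 1127 (WT) in the LV and 854 to 1163.5 against 922 to 1421 in the RV. Smooth muscle and pericyte markers summed to 2550 to 2885 (cKO) against 2481 to 2717 (WT) in the LV and 1974 to 2527 against 2577 to 2641 in the RV. Gene by gene, edgeR called 5 of these 10 higher and 1 lower in RV cKO at an adjusted p under 0.05. Among all genes tested it called 19.8% higher and 17.6% lower. The median log2 fold change of the 10 was 0.61, so the RV sum and the median marker differed in direction. The LV library of cKO 177 stood apart from the other LV cKO libraries, with 1477 CPM of macrophage and 105 CPM of neutrophil markers where the other 3 had 375 to 749 and 2.56 to 6.78. The neutrophil marker Ly6g was at 0 in every library. In such bulk tissue, fewer cells of a type and less RNA per cell cannot be told apart, and the part that these cell types had in the results below was not tested.

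Pkp2 deletion was set against WT to ask how the whole family moved in the diseased heart. In the LV, 28 of 47 expressed members rose and 4 fell in cKO, beside 19.7% (higher) and 16.1% (lower) of all 16410 genes tested. In the RV, 35 of 49 rose and 3 fell, beside 19.8% and 17.6% of 17307 genes tested. The median log2 fold change of the expressed members was 0.98 in the LV and 1.47 in the RV, while that of all genes tested was 0.05 and 0.06. By family, 8 Mmps rose and 1 fell of 12 in the LV, 3 of 4 Timps rose, 5 Adams rose and 2 fell of 13, 9 Adamts genes rose and 1 fell of 13, and 3 of 5 Adamtsl genes rose. RV counts were 9 higher and 1 lower of 12 Mmps, 3 higher of 4 Timps, 7 higher and 1 lower of 14 Adams, 12 higher and 1 lower of 14 Adamts genes and 4 higher of 5 Adamtsl genes. "Rose" and "fell" stand here for an adjusted p under 0.05 in edgeR's quasi-likelihood test with Benjamini-Hochberg adjustment over all genes of the ventricle, and fold changes are given on the log2 scale with their SE. Without the library of cKO 177, 28 LV members rose and 7 fell, and 31 of the 32 calls remained. Expressed members whose WT mean was under 1 CPM, 5 in the LV and 8 in the RV, reached the threshold of expression through the other arms. The counts and medians above include these members and were not taken without them. The shares of all genes cover every gene that passed the filter on low counts, without the threshold of 1 CPM.

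**Figure D1:**
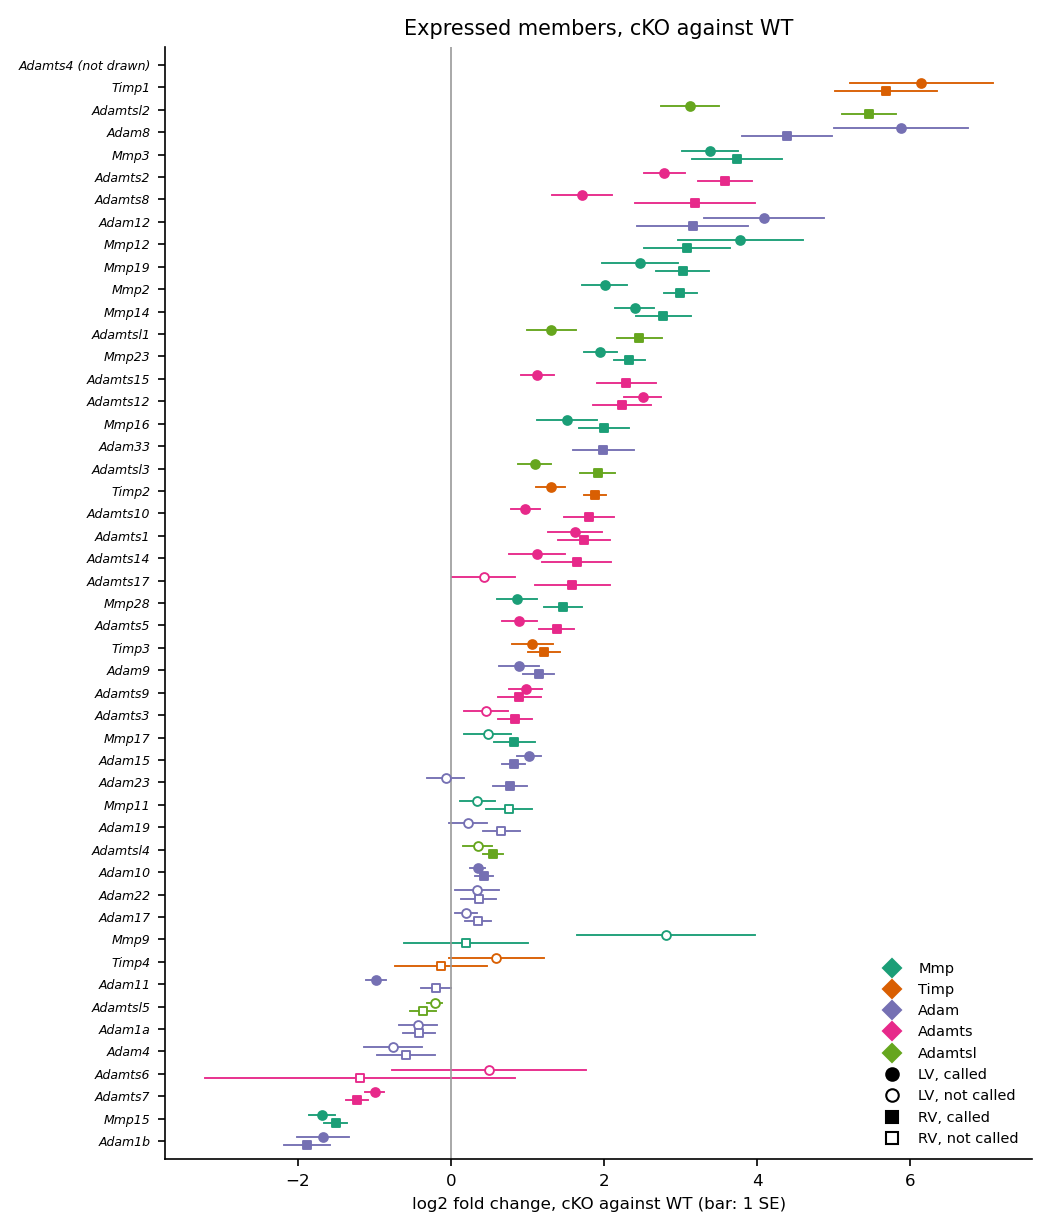
Log2 fold change of cKO over WT for the expressed members in the LV (circles) and RV (squares), with bars of 1 SE and filled symbols for adjusted p under 0.05. Timp1, Adam8 and Adamtsl2 lie farthest to the right and Mmp15 and Adam1b farthest to the left, and Adamts4, with all WT libraries of the RV at 0, is not drawn.

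Among the inhibitors, Timp1 had the largest change. Timp1, a soluble inhibitor that is low in healthy muscle and induced in injured tissue, stood at 128, 5.90, 14.8 and 11.97 CPM in the LV of cKO 177, 180, 257 and 264, at 8.30, 14.2, 10.3 and 2.45 in 3E13, at 6.73, 1.23 and 2.68 in 6E13 and at 0.236, 0.533, 0.606, 0.810 and 0.610 in WT. In the RV it stood at 39.2, 12.4, 24.8 and 38.9 CPM in cKO, 13.04 and 16.2 in 3E13, 15.6, 5.45 and 3.05 in 6E13 and 0.640, 0.453 and 0.577 in WT. Every library of the 3 Pkp2-deleted arms was above every WT library in both ventricles, and cKO 177 was far above the rest in the LV. The log2 fold change of cKO over WT was 6.15 ± 0.93 (adjusted p = 1.9e-04) in the LV and 5.69 ± 0.67 (adjusted p = 8.4e-05) in the RV, and without cKO 177 the LV value was 4.25 ± 0.57 (adjusted p = 6.6e-05). In 6E13 Timp1 fell against cKO by 3.48 in the LV and 1.83 in the RV on the log2 scale, with adjusted p of 0.024 in each. The LV call was lost without any 1 of 6E13 631, 6E13 645 and cKO 177 (adjusted p = 0.080 to 0.10) and with only the 2 arms in the fit (adjusted p = 0.15), and its log2 fold change was -1.60 without cKO 177 and -4.36 without 6E13 250. The RV call was lost without any 1 of 6E13 631, 6E13 645, cKO 177 and cKO 264 (adjusted p = 0.053 to 0.096) and with only the 2 arms in the fit (adjusted p = 0.060), and its value was -2.76 without 6E13 250.

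Timp2, which blocks matrix metalloproteases and also helps Mmp14 activate Mmp2, had 90.2, 191, 227 and 203 CPM in LV cKO libraries, 125, 112, 108 and 99.2 in 3E13, 91.03, 91.6 and 87.9 in 6E13 and 68.3, 64.6, 82.2, 66.2 and 78.5 in WT. RV levels were 261, 345, 278 and 365 CPM in cKO, 189 and 188 in 3E13, 117, 132 and 112 in 6E13 and 82.9, 79.3 and 92.04 in WT. All cKO libraries lay above all WT libraries, but cKO 177, highest for Timp1, was the lowest cKO library for Timp2 in the LV. Timp2 rose in cKO by 1.31 ± 0.19 (adjusted p = 1.3e-04) in the LV and 1.88 ± 0.14 (adjusted p = 8.0e-06) in the RV. Timp3, the inhibitor that binds to the matrix itself, had 211, 809.6, 395 and 587 CPM in LV cKO libraries and 216 to 261 in LV WT libraries, so that cKO 177 lay below all WT libraries and the other cKO libraries above them. In the RV Timp3 had 518, 1027, 572 and 663 CPM in cKO and 303, 305 and 289.9 in WT, with no overlap. Timp3 rose in cKO by 1.07 ± 0.27 (adjusted p = 0.0058) in the LV and 1.22 ± 0.21 (adjusted p = 9.0e-04) in the RV.

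Timp4, the Timp best known from healthy heart muscle, passed edgeR's test in none of the 12 comparisons between arms when the 4 arms were fitted together. With only the 2 arms in the fit it was called in the RV of 3E13 against WT. It stood at 1.60, 42.1, 6.57 and 36.8 CPM in LV cKO libraries and 14.8, 15.04, 12.97, 17.6 and 11.7 in LV WT libraries, and at 3.66, 32.5, 4.60 and 20.8 in RV cKO and 17.4, 21.00 and 11.9 in RV WT libraries. In both ventricles cKO 177 and cKO 257 lay below all WT libraries. cKO 180 lay above all of them, and cKO 264 above all in the LV and within their range in the RV. The log2 fold change was 0.59 ± 0.62 (adjusted p = 0.49) in the LV and -0.13 ± 0.60 (adjusted p = 0.89) in the RV. Timp3 shares 1734 exon bases with Syn3 and Timp4 shares 1142 with Syn2, each on the opposite strand, and Timp2 shares 332 with Cep295nl on the same strand. The study names a stranded library kit, but the strand setting of its quantification is not given in the sources used here. How reads from the shared bases were divided between such genes is therefore not known.

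**Figure D2:**
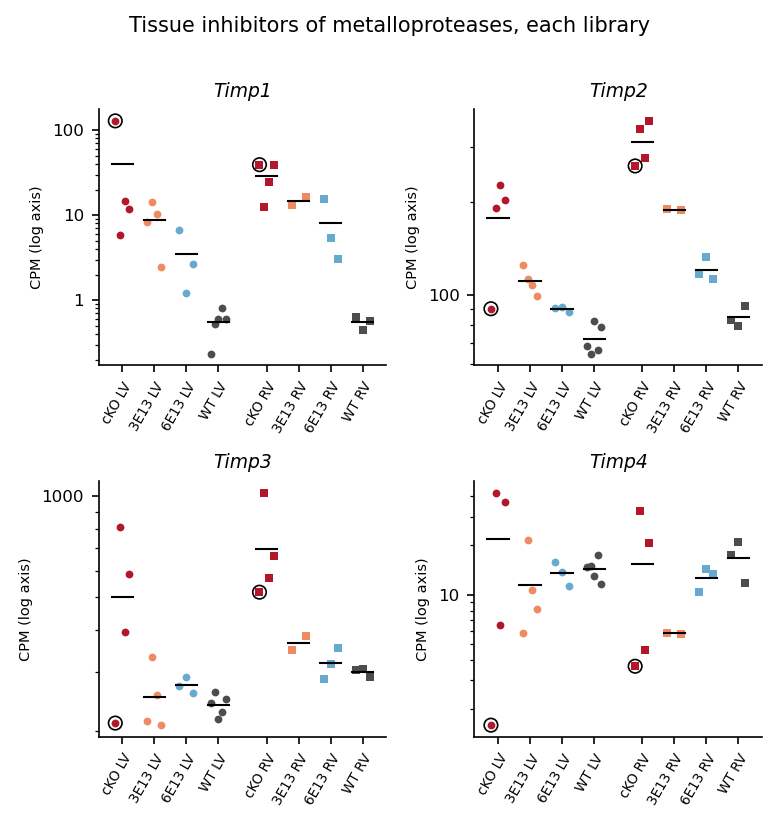
CPM of the 4 Timps in each library on a log axis, arms from left to right cKO, 3E13, 6E13 and WT, with circles for LV, squares for RV, bars for arm means and a ring round cKO 177. Timp1 is under 1 CPM in every WT library and above 1 in every other, while the Timp4 values of cKO spread on both sides of WT.

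Set on a scale that corrects for transcript length (TPM), the make-up of the Timp RNA differed between arms. Timp1 made up 3.09 to 69.6% of the summed Timp TPM in LV cKO libraries, with 69.6% in cKO 177, and 0.399 to 1.49% in LV WT libraries. RV shares were 5.42 to 22.6% in cKO and 0.604 to 0.792% in WT. In 3E13 the Timp1 share was 4.25 to 14.03% (LV) and 11.9 to 13.9% (RV), and in 6E13 1.39 to 8.58% and 3.54 to 18.1%. Timp3 led in every WT library, with 65.8 to 73.8% of Timp TPM in the LV, and had the highest mean TPM of all members in each of the 4 arms of both ventricles. The ratio of summed Mmp to summed Timp TPM ran from 0.352 to 0.659 in LV cKO and from 0.508 to 0.612 in LV WT libraries, which overlapped. In the RV it ran from 0.440 to 0.695 in cKO and from 0.435 to 0.468 in WT, also overlapping. These sums describe RNA only and carry no test.

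**Figure D3:**
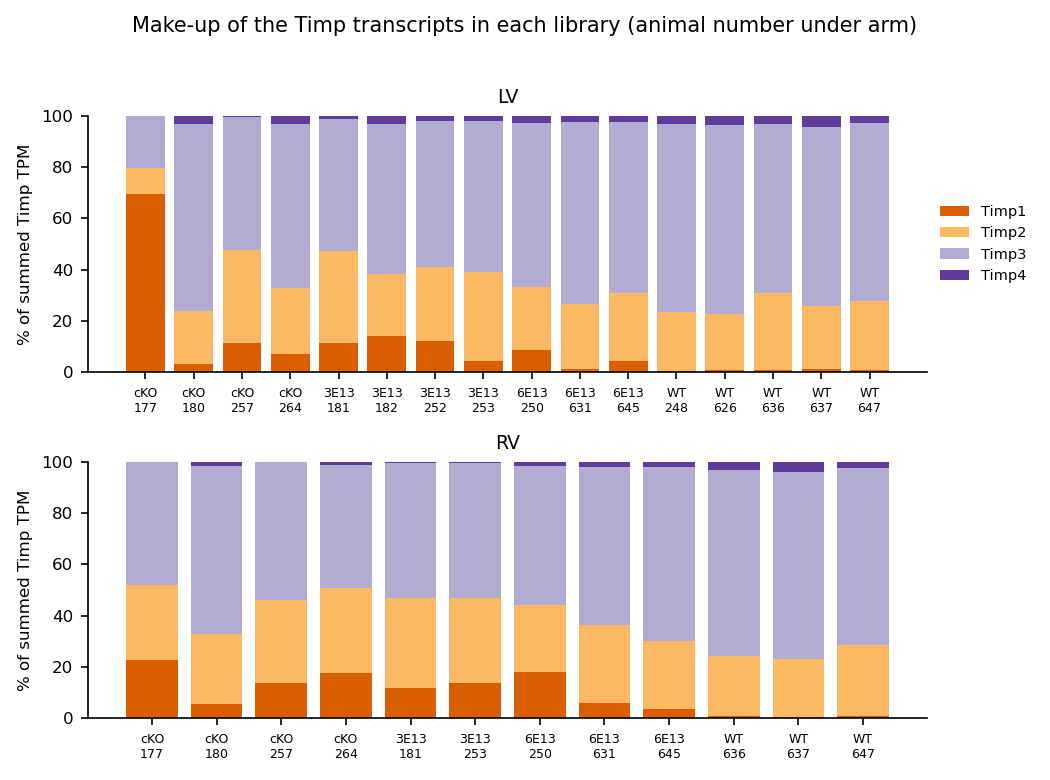
Share of each Timp in the summed Timp TPM per library in percent, arms in the order cKO, 3E13, 6E13 and WT. Timp3 is the largest part of every WT library, and Timp1 reaches 69.6% in the LV of cKO 177.

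Among the secreted matrix metalloproteases, the gelatinase Mmp2 was the most abundant by TPM in cKO hearts. LV levels of Mmp2 were 42.7, 168, 184 and 144 CPM in cKO, 86.3, 66.2, 72.7 and 61.6 in 3E13, 48.4, 59.95 and 46.9 in 6E13 and 31.3, 26.4, 37.7, 34.7 and 37.2 in WT. RV levels were 270.3, 287, 239.9 and 342 CPM in cKO, 132 and 138 in 3E13, 75.3, 92.7 and 49.5 in 6E13 and 30.5, 35.9 and 40.6 in WT. No cKO library overlapped WT, and cKO 177 was again the lowest LV cKO library. Mmp2 rose in cKO by 2.01 ± 0.29 (adjusted p = 1.3e-04) in the LV and 3.00 ± 0.22 (adjusted p = 6.8e-06) in the RV. Its share of all Mmp TPM was 12.4 to 55.2% in LV cKO and 19.1 to 24.2% in LV WT libraries.

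Mmp3, Mmp12 and Mmp13 are shown together because they lie in 1 cluster of 9 Mmp genes and their promoters hold the same motif, but only the first and the second were expressed. Mmp3 is stromelysin-1, which cuts proteoglycans and activates other Mmps, Mmp12 is the elastase of macrophages, and Mmp13 is the main interstitial collagenase of mice. The cluster spans chr9:7272514-7699587 in GRCm39, and no other member of it reached a mean of 1 CPM. The windows below run from 100 bases before to 50 bases after the RefSeq start (GRCm38.p6, plus strand). Capitals mark the motif TGANTCA, a loose form of the AP-1 site.
Mmp3 chr9:7445722-7445871: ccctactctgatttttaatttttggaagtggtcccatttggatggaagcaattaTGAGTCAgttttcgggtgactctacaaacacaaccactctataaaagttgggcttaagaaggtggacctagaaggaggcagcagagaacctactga
Mmp12 chr9:7347274-7347423: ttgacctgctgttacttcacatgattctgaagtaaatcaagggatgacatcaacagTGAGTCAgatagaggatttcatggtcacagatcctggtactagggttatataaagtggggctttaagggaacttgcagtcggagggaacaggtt
Mmp13 chr9:7272414-7272563: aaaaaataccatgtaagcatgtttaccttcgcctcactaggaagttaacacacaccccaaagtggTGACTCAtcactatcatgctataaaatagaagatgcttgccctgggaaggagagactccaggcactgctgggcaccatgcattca
The motif sat at -46 to -40 in Mmp3, -44 to -38 in Mmp12 and -35 to -29 in Mmp13, counted from the start site, and it reads the same on both strands. Of the 300-base windows around all start sites, 7.81% of 32851 held it, as did 12 of 57 windows of the 52 members matched to RefSeq and 7 of 9 genes of the cluster. These counts are of the loose form. Among the members, the match read TGAATCA in Adam20, Adam25 and Mmp20 and TGAGTCA or TGACTCA in the others. Only 4 of the 31 expressed members matched held it, namely Adam19, Adam1b, Mmp12 and Mmp3, and Adam1b fell in cKO. A match of letters is a description and shows no binding.

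Mmp3 stood at 18.1, 7.48, 9.57 and 13.02 CPM in LV cKO libraries, 4.38, 4.36, 3.32 and 2.45 in 3E13, 0.889, 2.06 and 0.954 in 6E13 and 0.851, 0.574, 1.90, 1.26 and 1.11 in WT. In the RV it stood at 11.7, 19.7, 16.5 and 63.1 CPM in cKO, 10.3 and 6.15 in 3E13, 1.52, 1.84 and 2.61 in 6E13 and 2.21, 1.45 and 2.55 in WT. All cKO libraries were above all WT and 6E13 libraries in both ventricles, and cKO 264 was the highest in the RV. Mmp3 rose in cKO by 3.38 ± 0.36 (adjusted p = 1.3e-05) in the LV and 3.74 ± 0.59 (adjusted p = 4.9e-04) in the RV, and by 2.94 in the RV without cKO 264. Mmp12 stood at 13.9, 1.38, 3.99 and 1.44 CPM in LV cKO, 2.31, 0.368, 1.22 and 1.79 in 3E13, 0.445, 1.36 and 1.36 in 6E13 and 0.378, 0, 0.496, 0.360 and 0.610 in WT. RV levels of Mmp12 were 2.15, 2.11, 3.76 and 0.657 CPM in cKO, 3.95 and 3.18 in 3E13, 1.30, 1.73 and 1.86 in 6E13 and 0.197, 0.181 and 0.371 in WT. No cKO library overlapped WT in either ventricle, and both 3E13 libraries of the RV were above 3 of the 4 cKO libraries. Mmp12 rose in cKO by 3.78 ± 0.82 (adjusted p = 0.0023) in the LV, where the value without cKO 177 was 2.59 ± 0.71 (adjusted p = 0.012), and by 3.09 ± 0.56 (adjusted p = 0.0013) in the RV. Mmp13 averaged 0.515 CPM in cKO and 0.523 in WT in the LV, and 0.331 in cKO and 0.630 in WT in the RV, and was not counted as expressed. Mmp12 and Mmp1b share 157 exon bases on opposite strands, and Mmp1b was at 0 in every library.

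Mmp19, a secreted Mmp of vessels and macrophages, ran from 3.27 to 13.4 CPM in LV cKO and 0.520 to 2.16 in LV WT libraries, and from 5.47 to 8.61 in RV cKO and 0.738 to 0.988 in RV WT libraries. It rose in cKO by 2.47 ± 0.4999 (adjusted p = 0.0015) in the LV and 3.03 ± 0.34 (adjusted p = 7.0e-05) in the RV, with no overlap in either ventricle. The gene shares 1084 exon bases with Tmem198b on the other strand. Mmp9, the gelatinase of neutrophils, lies outside the naming rule and was chosen after its values were seen. Its LV levels were 38.9, 0.0674, 0.390 and 0.654 CPM in cKO and 2.08, 1.72, 0.468, 1.66 and 1.26 in WT, so that cKO 177 was above all WT libraries and the other cKO libraries within or below their range. The log2 fold change of cKO over WT was 2.81 ± 1.16 (adjusted p = 0.071) with cKO 177 and -1.94 ± 0.67 (adjusted p = 0.037) without it, so that a single library turned its direction.

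Of the membrane-bound Mmps, Mmp14 and Mmp15 moved in opposite directions. Mmp14 (MT1-MMP), which cuts fibrillar collagen at the cell surface and activates Mmp2, had 96.3, 41.1, 60.9 and 67.02 CPM in LV cKO libraries, 27.6, 24.9, 27.7 and 21.02 in 3E13, 23.96, 20.7 and 10.4 in 6E13 and 10.8, 9.75, 16.7, 14.4 and 11.1 in WT. RV levels were 117, 66.8, 65.6 and 90.7 CPM in cKO, 38.6 and 39.1 in 3E13, 47.9, 25.8 and 17.1 in 6E13 and 13.97, 15.1 and 8.28 in WT. Every cKO library was above every WT library, with log2 fold changes of 2.40 ± 0.25 (adjusted p = 1.1e-05) in the LV and 2.77 ± 0.36 (adjusted p = 1.6e-04) in the RV. Mmp15 (MT2-MMP), a close relative of Mmp14, had 29.1, 36.2, 47.7 and 36.7 CPM in LV cKO libraries, 95.1, 55.9, 104 and 106 in 3E13, 108, 103 and 105 in 6E13 and 124, 119.7, 121, 113 and 124 in WT. In the RV Mmp15 had 31.5, 35.3, 45.5 and 28.5 CPM in cKO, 59.3 and 62.8 in 3E13, 93.03, 90.1 and 112 in 6E13 and 103, 107.3 and 90.6 in WT. All cKO libraries lay below all libraries of the other arms in both ventricles. Mmp15 fell in cKO by 1.68 ± 0.17 in the LV (adjusted p = 6.5e-06) and 1.51 ± 0.15 in the RV (adjusted p = 3.3e-05) on the log2 scale. It made up 45.5 to 50.7% of all Mmp TPM in LV WT libraries, where it was the largest, and 4.92 to 7.21% in LV cKO libraries. RV shares were 2.42 to 5.69% in cKO and 38.1 to 44.4% in WT. Mmp23, a small membrane-anchored Mmp, ran from 5.09 to 9.78 CPM in LV cKO and 1.79 to 2.59 in LV WT libraries, with no overlap, and rose by 1.95 ± 0.22 (adjusted p = 1.6e-05) in the LV and 2.33 ± 0.20 (adjusted p = 1.5e-05) in the RV.

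**Figure D4:**
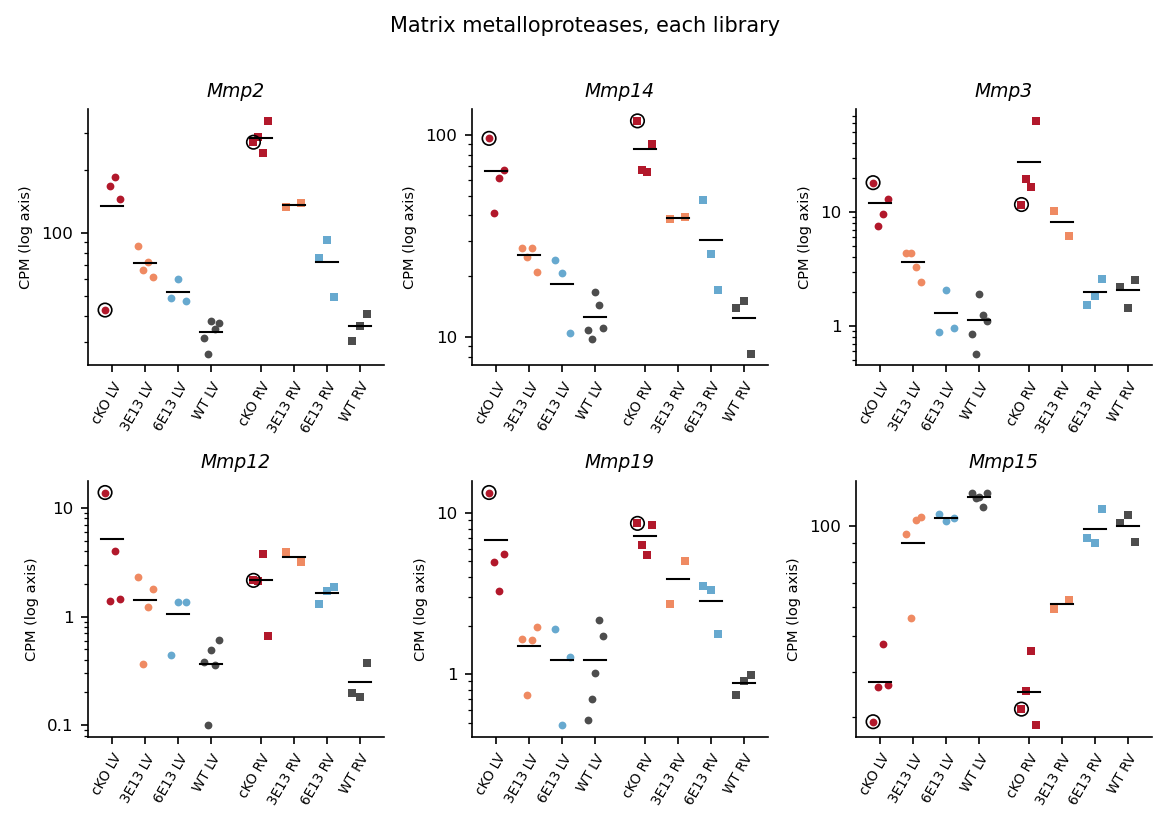
CPM per library on a log axis for Mmp2, Mmp14, Mmp3, Mmp12, Mmp19 and Mmp15, arms from left to right cKO, 3E13, 6E13 and WT, circles for LV, squares for RV, bars for arm means, a ring round cKO 177, and values under 0.1 CPM drawn at 0.1. All cKO libraries lie below all others for Mmp15 and above all WT libraries for the other genes.

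Adam8, a protease of myeloid cells, had 96.9, 4.05, 6.87 and 12.1 CPM in LV cKO libraries, 2.48, 3.47, 2.07 and 1.62 in 3E13, 2.28, 0.525 and 1.36 in 6E13 and 0.331, 0.574, 0.303, 0.990 and 0.381 in WT. In the RV it had 19.9, 6.63, 5.44 and 12.4 CPM in cKO, 3.99 and 3.18 in 3E13, 4.10, 1.47 and 1.502 in 6E13 and 0.640, 0.362 and 0.577 in WT. All cKO libraries were above all others in the ventricle, and cKO 177 was the highest for Adam8 in both. In the LV cKO 177 was also the highest in macrophage and neutrophil markers. In the RV cKO 264 was the highest in macrophage markers, at 1160 CPM against 1061 in cKO 177. Neutrophil markers of the RV were highest in cKO 177, at 22.1 CPM against 3.96, 10.3 and 5.25 in cKO 180, 257 and 264. Adam8 rose in cKO by 5.88 ± 0.88 (adjusted p = 1.7e-04) in the LV and 4.39 ± 0.59 (adjusted p = 1.8e-04) in the RV, and the LV value without cKO 177 was 3.90 ± 0.49 (adjusted p = 3.5e-05). Adam12, which sheds growth factors and is induced in tissue repair, had 72.3, 2.39, 6.63 and 13.4 CPM in LV cKO and 1.09, 0.779, 1.46, 2.70 and 0.953 in LV WT libraries, and 29.6, 5.99, 6.31 and 22.2 in RV cKO and 2.56, 1.27 and 1.56 in RV WT libraries. cKO 180 lay within the WT range in the LV, and there was no overlap in the RV. Adam12 rose by 4.09 ± 0.79 (adjusted p = 0.0010) in the LV, or 2.41 ± 0.53 (adjusted p = 0.0026) without cKO 177, and by 3.16 ± 0.73 (adjusted p = 0.0051) in the RV.

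The broad sheddases had smaller fold changes. Adam10, which cuts Notch and cadherins, ran from 61.1 to 92.6 CPM in LV cKO and 56.9 to 63.9 in LV WT libraries, where 1 cKO library (180) lay within the WT range, and rose by 0.35 ± 0.10 (adjusted p = 0.011) in the LV and 0.43 ± 0.12 (adjusted p = 0.011) in the RV. The LV call was lost with transcript length offsets (adjusted p = 0.052) and with only the 2 arms in the fit (adjusted p = 0.051). Adam17, which releases tumor necrosis factor and ligands of the EGF receptor, ran from 29.03 to 55.3 CPM in LV cKO and 30.7 to 37.5 in LV WT libraries, and its change of 0.20 ± 0.15 (adjusted p = 0.32) in the LV and 0.35 ± 0.17 (adjusted p = 0.13) in the RV did not pass the test. Adam15, a membrane Adam with an integrin-binding part, was the Adam with the highest mean TPM in LV cKO and WT tissue. Adam15 shares 1364 exon bases with 4731419I09Rik and Adam17 shares 341 with Iah1, both on opposite strands. Their levels carry the same uncertainty as those of Timp3 and Timp4. Adam15 ran from 58.4 to 90.7 CPM in LV cKO and 30.9 to 39.7 in LV WT libraries, and rose by 1.02 ± 0.15 (adjusted p = 1.9e-04) in the LV and 0.82 ± 0.15 (adjusted p = 0.0013) in the RV.

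A pair of Adams fell. Adam1b, a fertilin subunit of mouse sperm, had 0.784, 1.96, 1.68 and 1.01 CPM in LV cKO, 2.02, 3.84, 4.74 and 2.93 in 3E13, 3.36, 5.60 and 4.77 in 6E13 and 5.86, 3.52, 2.95, 3.33 and 5.95 in WT libraries. RV levels were 1.26, 1.21, 1.62 and 1.20 CPM in cKO, 1.99 and 1.68 in 3E13, 2.26, 3.13 and 4.15 in 6E13 and 6.94, 4.25 and 3.46 in WT. No cKO library overlapped WT in either ventricle, with log2 fold changes of -1.67 ± 0.34 (adjusted p = 0.0016) in the LV and -1.88 ± 0.30 (adjusted p = 5.8e-04) in the RV. Adam1a and Adam1b are near copies that can share reads, so the level of each alone is uncertain. Adam11, an Adam of the nervous system without protease activity, ran from 5.80 to 6.84 CPM in LV cKO and 11.6 to 13.1 in LV WT libraries, for which the log2 fold change was -0.97 ± 0.13 (adjusted p = 7.4e-05). In the RV the groups overlapped, with 7.09 to 12.4 CPM in cKO and 10.05 to 11.9 in WT and a log2 fold change of -0.20 ± 0.19 (adjusted p = 0.47). The LV fall was -0.25 (adjusted p = 0.23) by limma on log2(TPM + 1), a scale on which the median of all genes tested was itself 0.37 in the LV and 0.54 in the RV.

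Of the Adamts enzymes that trim procollagen, Adamts2 rose in both ventricles. Adamts14 rose by 1.13 ± 0.37 (adjusted p = 0.027) in the LV and 1.64 ± 0.45 (adjusted p = 0.013) in the RV, with overlap of cKO and WT libraries in the LV. Its LV call was lost without cKO 177 (0.82 ± 0.37, adjusted p = 0.11), without cKO 264 and without WT 626, and its RV call without WT 647. Adamts3 passed the test in the RV (0.84 ± 0.22, adjusted p = 0.012) and stood at 0.46 ± 0.29 (adjusted p = 0.24) in the LV, where it was called without cKO 177 (0.70 ± 0.22, adjusted p = 0.026) and by limma on log2(TPM + 1). Adamts2, the main procollagen N-proteinase, had 83.7, 75.8, 132 and 151 CPM in LV cKO libraries, 51.2, 69.7, 44.5 and 32.03 in 3E13, 38.7, 34.8 and 18.3 in 6E13 and 13.4, 13.9, 21.1, 15.8 and 15.4 in WT. RV levels were 265, 156, 154 and 237 CPM in cKO, 66.9 and 66.9 in 3E13, 72.3, 54.6 and 25.98 in 6E13 and 19.2, 18.4 and 13.3 in WT. Every library of the 3 Pkp2-deleted arms was above every WT library of its ventricle, except 6E13 645 in the LV, at 18.3 CPM. Adamts2 rose in cKO by 2.79 ± 0.27 (adjusted p = 5.6e-06) in the LV and 3.58 ± 0.35 (adjusted p = 2.9e-05) in the RV. Col1a1, a substrate from the list below, rose by 3.87 ± 0.43 and 4.95 ± 0.65.

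Among the proteoglycan-cutting members, Adamts1, induced early in injured tissue, ran from 41.1 to 144 CPM in LV cKO and 26.5 to 43.1 in LV WT libraries, with cKO 257 within the WT range, and rose by 1.62 ± 0.35 (adjusted p = 0.0022) in the LV and 1.74 ± 0.34 (adjusted p = 0.0019) in the RV. Adamts9 rose by 0.98 ± 0.21 (adjusted p = 0.0025) in the LV and 0.89 ± 0.28 (adjusted p = 0.025) in the RV, and the RV call was lost without any 1 of WT 637, WT 647 and cKO 264 (adjusted p = 0.061 to 0.094) and with only the 2 arms in the fit (adjusted p = 0.056). Adamts8 rose by 1.71 ± 0.39 (adjusted p = 0.0031) in the LV and 3.19 ± 0.78 (adjusted p = 0.0075) in the RV, where its value was 2.52 without cKO 257. Adamts4, an aggrecanase, had 10.7, 0.431, 0 and 14.2 CPM in RV cKO libraries and 0 in all 3 RV WT libraries. Against a floor of 3 counts per library (at most 0.148 CPM), its cKO mean of 6.32 CPM was at least 42.8-fold higher, but cKO 257 was at 0 and cKO 180 at 0.431, so the rise lay in animals 177 and 264. Its call (adjusted p = 0.047) was lost without any 1 of WT 636, WT 637, WT 647, cKO 177 and cKO 264 (adjusted p = 0.076 to 0.11) and by limma on log2(TPM + 1) (adjusted p = 0.068).

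Adamts12 and Adamts7, relatives that both cut cartilage oligomeric matrix protein, moved in opposite directions. Adamts12 had 25.7, 11.9, 21.5 and 30.6 CPM in LV cKO libraries, 7.26, 7.52, 8.92 and 6.95 in 3E13, 9.76, 6.78 and 5.04 in 6E13 and 3.59, 3.03, 4.49, 4.05 and 4.54 in WT, without overlap of cKO and WT. It rose in cKO by 2.51 ± 0.24 (adjusted p = 5.6e-06) in the LV and 2.24 ± 0.38 (adjusted p = 8.0e-04) in the RV. Adamts7 had 11.03, 10.2, 8.97 and 10.2 CPM in LV cKO libraries, 14.1, 13.7, 12.2 and 12.7 in 3E13, 19.1, 17.6 and 18.8 in 6E13 and 22.9, 21.7, 18.2, 15.1 and 22.99 in WT, and 12.3, 9.35, 10.5 and 9.96 in RV cKO, 10.8 and 10.6 in 3E13, 16.7, 21.04 and 18.8 in 6E13 and 26.96, 20.7 and 26.03 in WT. All cKO libraries lay below all WT libraries, with log2 fold changes of -0.996 ± 0.12 (adjusted p = 3.8e-05) in the LV and -1.22 ± 0.14 (adjusted p = 7.4e-05) in the RV. By limma on log2(TPM + 1) the falls were -0.40 (adjusted p = 0.074) in the LV and -0.22 (adjusted p = 0.30) in the RV and did not pass. Adamts7 and Tbc1d2b share 122 exon bases on opposite strands.

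Adamtsl2, a matrix protein without protease activity that binds fibrillin microfibrils, rose most among the Adamts-like genes in both ventricles. It stood at 13.6, 57.6, 57.9 and 71.3 CPM in LV cKO libraries, 18.4, 27.4, 23.5 and 14.3 in 3E13, 20.7, 14.7 and 8.99 in 6E13 and 8.04, 5.04, 5.01, 5.26 and 5.49 in WT. In the RV it stood at 157, 174, 91.1 and 189.9 CPM in cKO, 32.1 and 30.9 in 3E13, 23.6, 15.00 and 12.8 in 6E13 and 4.82, 2.90 and 2.72 in WT. All libraries of the 3 Pkp2-deleted arms were above all WT libraries, and cKO 177 was the lowest LV cKO library. Adamtsl2 rose in cKO by 3.12 ± 0.38 (adjusted p = 3.4e-05) in the LV and 5.46 ± 0.35 (adjusted p = 4.9e-06) in the RV. Adamtsl3 rose by 1.09 ± 0.22 (adjusted p = 0.0015) in the LV and 1.92 ± 0.23 (adjusted p = 9.3e-05) in the RV. Adamtsl4, known in humans from displaced lenses, rose in the RV by 0.55 ± 0.13 (adjusted p = 0.0050), a call lost with transcript length offsets (0.34, adjusted p = 0.18), and stood at 0.35 ± 0.19 (adjusted p = 0.17) in the LV. Adamtsl5, the Adamts-like gene with the highest mean TPM in WT tissue of both ventricles, ran from 48.4 to 67.4 CPM in LV cKO and 66.7 to 73.6 in LV WT libraries, and its log2 fold changes of -0.21 ± 0.10 (adjusted p = 0.12) in the LV and -0.36 ± 0.17 (adjusted p = 0.11) in the RV did not pass the test.

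Genes that act on or with these proteases moved as well. Their lists were chosen with earlier results of these data known, so the counts below describe the listed genes and test nothing. Of all genes tested, 19.7% were higher and 16.1% lower in cKO against WT in the LV, and 19.8% and 17.6% in the RV. Of 28 regulators and partners, 25 were tested and 18 rose and 1 fell in cKO in each ventricle. Thbs1 (thrombospondin-1) rose by 4.81 ± 0.52 in the LV and 4.59 ± 0.45 in the RV. Reck, a membrane inhibitor of Mmps, rose by 0.92 ± 0.24 in the LV and 1.45 ± 0.17 in the RV, while Bsg (basigin), an inducer of Mmps in humans, had log2 fold changes of -0.76 ± 0.19 and -0.98 ± 0.19 and was the gene that fell. Of 10 other metzincins and related genes, 7 were tested. In the LV 4 rose and 1 fell, and in the RV 5 rose and 1 fell. Bmp1, the procollagen C-proteinase, rose by 2.09 ± 0.31 in the LV and 2.26 ± 0.45 in the RV, and its relative Tll2 had -2.90 ± 0.67 and -4.51 ± 0.90. Of 23 substrates, 14 of 19 tested rose and 1 fell in the LV, and 15 of 20 rose and 1 fell in the RV, with Fn1 (fibronectin) at 3.91 ± 0.45 and 3.89 ± 0.51 and Vcan (versican) at 2.19 ± 0.21 and 2.38 ± 0.28. In 6E13 against cKO, 12 regulators fell and 0 rose in the LV and 15 fell and 1 rose in the RV, and 13 substrates fell and 1 rose in each ventricle. Among all genes in that comparison, 8.16% were lower and 8.65% higher in the LV, and 10.9% and 11.2% in the RV.

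TN-401 given before deletion was set against cKO to ask how far the members moved with treatment. The comparisons of the 2 doses share their cKO libraries. In the LV, 12 of 47 expressed members fell and 2 rose in 3E13 against cKO, beside 6.25% (lower) and 5.52% (higher) of all genes tested, and 16 fell and 5 rose in 6E13, beside 8.16% and 8.65%. In the RV, 14 of 49 fell and 1 rose in 3E13, beside 3.83% and 4.77%, and 25 fell and 4 rose in 6E13, beside 10.9% and 11.2%. Medians of the expressed members were -0.65 (3E13) and -0.81 (6E13) in the LV and -0.89 and -1.01 in the RV, where those of all genes lay between -0.04 and -0.02. By limma on log2(TPM + 1), where the median of all genes tested lay between -0.40 and -0.27, the lower and higher members were 24 and 1 (3E13) and 26 and 2 (6E13) in the LV and 27 and 0 (3E13) and 32 and 1 (6E13) in the RV. Of all 16410 genes tested in the LV, limma called 3410 (3E13) and 3704 (6E13) lower and 145 and 246 higher. Of 17307 in the RV, it called 5412 and 6374 lower and 142 and 432 higher. In the RV of 3E13 DESeq2 called 25 members and edgeR with transcript length offsets 9. With only the 2 arms compared in the fit, the LV counts were 0 (3E13) and 5 (6E13) members, and the RV count of 3E13 was 1 (Adamtsl2). Every LV call of 3E13 against cKO given below was therefore lost in that fit. Leaving out 1 animal moved the LV count of 3E13 to between 6 (without 3E13 253) and 19 (without cKO 180), with 9 without 3E13 181, 8 without 3E13 252 and 8 without cKO 264. For 6E13 in the LV it was 13 without 6E13 631 and 11 without 6E13 645. The RV arm of 3E13 held 2 animals, and its count was 0 without either and 7 without cKO 264.

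Mmp15, the Mmp that fell in cKO, was higher in both treated arms. Its log2 fold change over cKO was 1.27 ± 0.17 (adjusted p = 9.0e-04) in 3E13 and 1.498 ± 0.18 (adjusted p = 2.9e-04) in 6E13 in the LV, and 0.79 ± 0.17 (adjusted p = 0.022) and 1.48 ± 0.15 (adjusted p = 1.7e-04) in the RV. The 3E13 call in the RV was lost without either of 3E13 181 and 3E13 253 (adjusted p = 0.14 to 0.17) and by limma on log2(TPM + 1) (adjusted p = 0.55) and with only the 2 arms in the fit (adjusted p = 0.085). The limma value there was 0.17. Adam1b rose over cKO in the LV by 1.32 ± 0.35 (adjusted p = 0.027) in 3E13 and 1.75 ± 0.37 (adjusted p = 0.0064) in 6E13. The 3E13 call was lost without any 1 of 3E13 252, 3E13 253, cKO 177 and cKO 264 (adjusted p = 0.051 to 0.083) and by limma on log2(TPM + 1) (adjusted p = 0.13) and with only the 2 arms in the fit (adjusted p = 0.13). The 6E13 call was lost with only the 2 arms in the fit (adjusted p = 0.061). In 6E13 Adam11 also rose in the LV by 0.93 ± 0.15 (adjusted p = 0.0012) and Adamts7 by 0.87 ± 0.14 (adjusted p = 0.0013), both lost by limma on log2(TPM + 1) (adjusted p = 0.21 and 0.17). Adamtsl5 rose in 6E13 by 0.37 ± 0.12 (adjusted p = 0.040) in the LV and 0.75 ± 0.17 (adjusted p = 0.0084) in the RV. On the log2(TPM + 1) scale the LV value was -0.029 and the RV value 0.12 (adjusted p = 0.63), and the LV call was also lost without any 1 of 6E13 250, 6E13 631, 6E13 645, cKO 180 and cKO 264 (adjusted p = 0.066 to 0.13), with no low-count filter (adjusted p = 0.069) and with only the 2 arms in the fit (adjusted p = 0.20).

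Several members that rose in cKO fell in the treated arms. Mmp3 fell in 6E13, to a log2 fold change against cKO of -3.22 ± 0.44 (adjusted p = 6.5e-04) in the LV and -3.81 ± 0.59 (adjusted p = 0.0013) in the RV (-3.01 without cKO 264), and its 6E13 libraries overlapped the WT range in both ventricles. Adam8 stood at -4.40 ± 0.99 (adjusted p = 0.0087) in the LV, or -2.44 ± 0.54 (adjusted p = 0.0068) without cKO 177, and -2.22 ± 0.503 (adjusted p = 0.0093) in the RV. Without 6E13 250 the Adam8 values were -4.99 in the LV and -2.89 in the RV. In the LV of 3E13 Adam8 stood at -3.64 ± 0.84 (adjusted p = 0.015), or -1.68 ± 0.48 (adjusted p = 0.035) without cKO 177, and the call was lost without 3E13 253 (adjusted p = 0.053) and with only the 2 arms in the fit (adjusted p = 0.12). Adamtsl2 stood at -2.28 ± 0.34 (adjusted p = 0.0087) in 3E13 and -3.16 ± 0.30 (adjusted p = 1.5e-04) in 6E13 in the RV, and the 3E13 call was lost without either of 3E13 181 and 3E13 253 (adjusted p = 0.091 to 0.12). Mmp14 fell in the LV, to -1.39 ± 0.27 (adjusted p = 0.0063) in 3E13, a call lost with only the 2 arms in the fit (adjusted p = 0.055), and -1.85 ± 0.30 (adjusted p = 0.0014) in 6E13. Adamts2, the procollagen enzyme, stood at -1.85 ± 0.31 (adjusted p = 0.0018) in the LV and -1.99 ± 0.32 (adjusted p = 0.0016) in the RV in 6E13. Timp2 stood at -0.98 ± 0.22 (adjusted p = 0.0088) in the LV and -1.38 ± 0.14 (adjusted p = 1.7e-04) in the RV in 6E13, and all its 6E13 libraries were below all cKO libraries in the RV. With only the 2 arms in the fit, the LV calls of 6E13 were lost for Adam8, Mmp14 and Timp2, as was that of Adam1b. Timp3 fell in the RV, to -1.13 ± 0.21 (adjusted p = 0.0034) in 6E13. Mmp12 passed edgeR's test against cKO in neither dose nor ventricle. Its log2 fold change was -1.85 ± 0.80 (adjusted p = 0.14) in 3E13 and -2.31 ± 0.91 (adjusted p = 0.097) in 6E13 in the LV, where all 6E13 libraries lay below all cKO libraries and DESeq2 and limma on log2(TPM + 1) called it. RV values were 0.71 ± 0.51 (adjusted p = 0.42) in 3E13 and -0.42 ± 0.47 (adjusted p = 0.58) in 6E13.

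**Figure D5:**
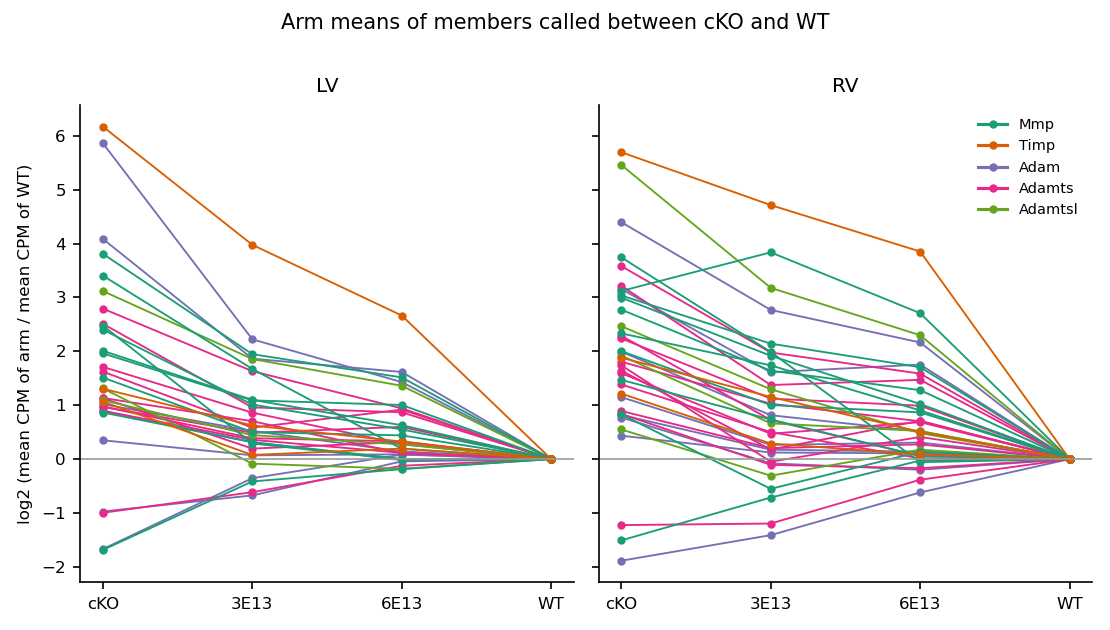
Log2 ratio of each arm's mean CPM to the WT mean for the members called in cKO against WT, arms in the order cKO, 3E13, 6E13 and WT, LV and RV apart. Lines run toward 0 in the treated arms for most members, and Adamts4 is left out because its RV WT libraries are at 0.

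Set against WT, treated hearts still differed for part of the members. In the LV of 3E13, 7 of 47 expressed members were higher and 2 lower, beside 1.97% and 0.530% of all genes tested. They were Timp1 (3.95 ± 0.89, adjusted p = 0.030), Adamtsl2 (1.86 ± 0.37, adjusted p = 0.015), Adamts2 (1.63 ± 0.27, adjusted p = 0.0046), Mmp3, Mmp23, Mmp14 and Adamts12 above WT and Adam11 and Adamts7 below it. The Timp1 call was lost without any 1 of 3E13 181, 3E13 182, 3E13 252, WT 248, WT 626, WT 636, WT 637 and WT 647 (adjusted p = 0.062 to 0.084) and by limma on log2(TPM + 1) (adjusted p = 0.11). That of Adamtsl2 was lost without WT 626 (adjusted p = 0.051) and by limma on log2(TPM + 1) (adjusted p = 0.060). The Adamts12 call (0.96 ± 0.24, adjusted p = 0.049) was lost without each single animal of either arm and with RLE size factors (adjusted p = 0.051), with no low-count filter (adjusted p = 0.057), with transcript length offsets (adjusted p = 0.059) and by limma on log2(TPM + 1) (adjusted p = 0.43). The Mmp14 call (1.01 ± 0.25, adjusted p = 0.045) was lost without any 1 of 3E13 181, 3E13 182, 3E13 252, 3E13 253, WT 248, WT 626, WT 637 and WT 647 (adjusted p = 0.053 to 0.12) and with transcript length offsets (adjusted p = 0.059) and by limma on log2(TPM + 1) (adjusted p = 0.19). That of Mmp3 (1.65 ± 0.36, adjusted p = 0.023) was lost without any 1 of 3E13 181, 3E13 182, WT 248, WT 626, WT 637 and WT 647 (adjusted p = 0.053 to 0.077) and by limma on log2(TPM + 1) (adjusted p = 0.12). Mmp23 (1.08 ± 0.22, adjusted p = 0.015) lost its call without 3E13 252 (adjusted p = 0.051). Adam11 (-0.67 ± 0.13, adjusted p = 0.013) lost it with transcript length offsets (adjusted p = 0.34) and by limma on log2(TPM + 1) (adjusted p = 0.72). Adamts7 (-0.61 ± 0.12, adjusted p = 0.015) lost it without 3E13 252 (adjusted p = 0.053) and with transcript length offsets (adjusted p = 0.065) and by limma on log2(TPM + 1) (adjusted p = 0.44). In the LV of 6E13 none of the 47 passed edgeR's test, beside 0.0792% (higher) and 0.00609% (lower) of all genes, with 7 members at an unadjusted p under 0.05. DESeq2 called 1 member there (Mmp23), limma on log2(TPM + 1) called 0, and edgeR with only the 2 arms in the fit called 4 (Adamts10, Adamtsl2, Mmp2 and Timp1). The LV count of 3E13 was 18 with only the 2 arms in the fit, 5 with transcript length offsets and 2 by limma. It was 4 without 3E13 252 or WT 626, and 5 without 3E13 181, 3E13 182, WT 248, WT 637 or WT 647. In the RV, 11 of 49 were higher and 3 lower in 3E13, beside 5.80% and 1.58% of all genes, and 4 were higher and 0 lower in 6E13, beside 0.849% and 0.0231%. By limma the RV count of 3E13 was 7, all higher, and it was 8 without 3E13 253 and 9 without 3E13 181 or WT 637. The RV count of 6E13 was 0 without WT 637 or WT 647, 1 without 6E13 250 or WT 636 and 2 without 6E13 631, and DESeq2 called 10.

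In the RV of 3E13, Timp1 stood above WT by 4.70 ± 0.69 (adjusted p = 0.0024), Adamtsl2 by 3.18 ± 0.35 (adjusted p = 7.6e-04) and Mmp2 by 1.92 ± 0.23 (adjusted p = 0.0010). Mmp12 stood above WT by 3.80 ± 0.61 (adjusted p = 0.0041), beside 3.09 ± 0.56 (adjusted p = 0.0013) in cKO. T, NK and B cell markers summed to 21.2 to 33.6 CPM in the 2 RV libraries of 3E13. They summed to 6.59 to 14.7 CPM in RV cKO and 2.27 to 3.67 in RV WT libraries. Macrophage and monocyte markers summed to 722.7 to 740.9 CPM in the same 3E13 libraries. Those values lay within the RV cKO range (643 to 1160 CPM) and above the RV WT range (226 to 276 CPM). The part of either set of markers in the Mmp12 level was not tested. Mmp15 was lower than WT there (-0.71 ± 0.18, adjusted p = 0.037), a call lost without any 1 of 3E13 181, 3E13 253, WT 636, WT 637 and WT 647 (adjusted p = 0.051 to 0.25) and by limma on log2(TPM + 1) (adjusted p = 0.33). Adamts7 was lower by 1.20 on the log2 scale (adjusted p = 0.0025), and limma gave -0.56 (adjusted p = 0.19). Adam1b was also below WT (-1.41 ± 0.38, adjusted p = 0.043), and its call was lost without any 1 of 3E13 181, 3E13 253, WT 636 and WT 637 (adjusted p = 0.083 to 0.27), and with no low-count filter (adjusted p = 0.064), with transcript length offsets (adjusted p = 0.056), by limma on log2(TPM + 1) (adjusted p = 0.21) and with only the 2 arms in the fit (adjusted p = 0.058).

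The 4 members above WT in the RV of 6E13 were Timp1 (3.85 ± 0.66, adjusted p = 0.031), Adamtsl2 (2.31 ± 0.32, adjusted p = 0.013), Mmp19 (1.70 ± 0.35, adjusted p = 0.048) and Mmp2 (1.02 ± 0.21, adjusted p = 0.049). All 3 libraries of 6E13 lay above all 3 WT libraries for each of them. The Timp1 call was lost without any 1 of 6E13 250, WT 636, WT 637 and WT 647 (adjusted p = 0.068 to 0.12) and had a value of 2.93 without 6E13 250. That of Adamtsl2 was lost without either of WT 637 and WT 647 (adjusted p = 0.063 to 0.074). Mmp19 lost its call without any 1 of 6E13 250, 6E13 631, WT 636, WT 637 and WT 647 (adjusted p = 0.13 to 0.20), and Mmp2 without any 1 of 6E13 250, 6E13 631, WT 636, WT 637 and WT 647 (adjusted p = 0.11 to 0.19). With RLE size factors or transcript length offsets only Timp1 and Adamtsl2 remained, limma called none, and with only the 2 arms in the fit only Adamtsl2 was called.

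The doses were set against each other in the same fits. In 6E13 against 3E13, edgeR called 0 of 47 expressed members in the LV, with 8 at an unadjusted p under 0.05, and 0 of 49 in the RV, with 12 at an unadjusted p under 0.05. In all genes tested, 0.0122% were higher in the LV and 0.0404% lower in the RV. DESeq2 called 1 member in the LV and 6 in the RV, and limma called 0 in each. Mmp3, which was lower in every 6E13 library than in every 3E13 library of both ventricles, had log2 fold changes of -1.49 ± 0.42 (adjusted p = 0.60) in the LV and -2.05 ± 0.61 (adjusted p = 0.33) in the RV. The median over the expressed members was -0.10 in the LV and -0.09 in the RV.

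To ask whether the ventricles differed, the 24 libraries of the 12 animals with both ventricles were fitted with animal as a block. In cKO 10 members were higher in RV than in LV and 1 was lower, beside 4.08% of 17981 genes tested that were called either way. They were Adamts15 (1.09 ± 0.14, adjusted p = 0.0034), Adam23 (1.15 ± 0.18, adjusted p = 0.0067), Adamts5 (0.70 ± 0.12, adjusted p = 0.011), Adam33 (1.91 ± 0.37, adjusted p = 0.019), Timp2 (0.74 ± 0.15, adjusted p = 0.020), Adamtsl2 (1.62 ± 0.34, adjusted p = 0.026), Mmp23, Adamts10, Adamts2 and, at the threshold, Mmp2 (1.11 ± 0.28, adjusted p = 0.04998). Adamtsl5 was lower (-0.54 ± 0.13, adjusted p = 0.039). Members expressed in either ventricle were tested, and Adam33 and Adamts4 reached a mean of 1 CPM only in the RV. The call of Adam33 is therefore not independent of the rule for expression. Without the block, edgeR called none, and the count was 3 without cKO 180 or without cKO 264. In WT, where 3 animals had both ventricles, edgeR called none of the 49 tested, with 7 at an unadjusted p under 0.05, beside 0.00556% of all genes. The difference between the cKO effect in RV and that in LV was tested in the same fit and passed edgeR's test for none, with 15 at an unadjusted p under 0.05, beside 0.0111% of all genes, so a larger fold change in the RV was not shown for any member. Adamtsl2 came nearest among the named members, with a difference of 2.36 ± 0.57 (adjusted p = 0.20), and 1.81 (adjusted p = 0.038) without cKO 177. Resting fibroblast markers were higher in RV than in LV cKO tissue as well, at 2073 to 2927 against 831 to 1755 CPM, and their part was not tested.

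The members that stayed under 1 CPM in both ventricles were 10 Mmps, 19 Adams and 5 Adamts genes. The Adams among them include Adam2, Adam3, Adam5 and Adam18, which are known from sperm. No counts at all were found for 7 members in the LV and 12 in the RV. A further 10 members in the LV and 12 in the RV passed the low-count filter with a mean under 1 CPM. Of these only Mmp27 rose in the LV in cKO, and Mmp8, Mmp25 and Mmp27 rose in the RV. Mmp8, the collagenase of neutrophils, averaged 1.13 CPM in LV cKO (3.95 in cKO 177) and 0.0696 in LV WT libraries, and 0.651 in RV cKO and 0 in RV WT libraries.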

How the data were processed

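RNA was sequenced from LV and RV tissue of 16 mice (28 libraries). The authors trimmed reads with fastp, quantified them with Salmon 1.8.0 against the GENCODE mouse transcripts (GRCm39) and summed transcripts to genes with tximport. The deposited values are expected counts, TPM and, per the file headers, the transcript length of each gene. The strand setting is not given in the sources used here. Of the deposited counts, 23.4% were not whole numbers and were rounded, and a row without a gene name, at most 0.000971% of a library, was left out. The deposited TPM of the listed genes made up 77.9 to 91.4% of the full TPM total per library, so TPM were used only for levels between genes and for 1 alternative.

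Groups came from the labels. Within a ventricle the 4 arms were fitted together with edgeR 4.0.16 (R 4.3.3), with TMM scaling, the tool's filter on low counts and the quasi-likelihood test. The Benjamini-Hochberg adjustment ran over 16410 (LV) or 17307 (RV) genes, and a member was called at an adjusted p under 0.05. CPM are counts over the TMM-scaled library size. RV was set against LV in the 24 libraries of 12 animals with animal as a block, because both ventricles came from the same animal, and the deviations of the 2 ventricles correlated by 0.072 to 0.53 over the 12 animals. No replicate numbers pair the arms. The authors' own test was on log2(TPM + 1) between pairs of groups. Totals of 19364764 to 39381176 counts set the precision, and a level of 0 was bounded by 3 counts per library. The arms are separate animals, and p-values measure the spread between them.

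Alternatives were scaling by RLE size factors, leaving out the low-count filter, transcript length offsets, DESeq2 1.42.0, limma 3.58.1 on log2(TPM + 1), only the 2 arms compared, and each animal left out. The edgeR step was tested on simulated data. A rule named 29 genes to describe with values, which are the 4 Timps, the called expressed members with the 8 largest rises and 8 largest falls of cKO against WT in each ventricle, the 3 with the highest TPM in each other family, the up to 4 with the smallest adjusted p in each comparison of a treated arm, and members called in a treated arm against WT in another way than in cKO. Adam23, Adam33, Adamts3, Adamts5, Adamts14, Adamts15, Mmp8, Mmp9 and Mmp13 lie outside it, and their values were seen before they were chosen. The members and lists were chosen with earlier results of these data known. Promoter windows of 250 bases before to 50 after the start are from RefSeq (GRCm38.p6), which matched 52 of the 83 members, and no coordinates were converted between builds.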

Additional observations from a re-analysis of the deposited data

Results flagged for a closer look

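In groups of 4 or 5 libraries, 9 of 113 groups of named genes (7.96%) held a library that stood apart from the rest of its arm, where chance gives about 1 in 20. The LV library of cKO 177 was the highest for Timp1 (128 CPM, next 14.8), Adam8 (96.9 CPM, next 12.1) and Adam12 (72.3 CPM, next 13.4). In RV cKO libraries, Mmp3 was highest in cKO 264 (63.1 CPM, next 19.7) and Adam1b in cKO 257 (1.62 CPM, next 1.26). In LV 3E13 libraries, Adam11 was lowest in 3E13 182 (5.84 CPM, next 8.39). In LV WT libraries, Adam10 (63.9 CPM, next 58.9) and Adamtsl2 (8.04 CPM, next 5.49) were highest in WT 248, and Mmp23 (2.59 CPM, next 1.84) was highest in WT 636.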

How the results depend on the processing

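The counts of members called between cKO and WT lay between 29 and 35 in the LV (32 as reported) and between 32 and 40 in the RV (38 as reported) over all alternatives. For limma on log2(TPM + 1) these counts, 33 in the LV and 40 in the RV, stand beside many more calls in all genes. It called 7209 of 16410 genes higher in the LV and 9478 of 17307 in the RV, where edgeR called 3236 and 3427. Other counts moved. In 3E13 against cKO, the LV count of 14 was 25 by limma on log2(TPM + 1), 0 with only the 2 arms compared and 6 to 19 with 1 animal left out, and the RV count of 15 was 9 with transcript length offsets, 25 by DESeq2, 27 by limma, 1 with only the 2 arms and 0 to 17 with 1 animal left out. In 6E13 against cKO, the LV count of 21 was 5 with only the 2 arms and 11 to 26 with 1 animal left out. In 3E13 against WT, the LV count of 9 was 5 with length offsets, 2 by limma, 18 with only the 2 arms and 4 to 7 with 1 animal left out, and the RV count of 14 was 7 by limma and 8 to 10 with 1 animal left out. In 6E13 against WT, the LV count of 0 was 1 by DESeq2 and 4 with only the 2 arms, and the RV count of 4 was 2 with RLE size factors, 2 with length offsets, 10 by DESeq2, 0 by limma, 1 with only the 2 arms and 0 to 5 with 1 animal left out. In 6E13 against 3E13, DESeq2 called 1 (LV) and 6 (RV) where edgeR called 0. For RV against LV in cKO the count of 11 was 0 with no replicate block and 3 to 13 with 1 animal left out, and for the difference between the cKO effects it was 0 to 1. The block changed no other count of the ventricle fits. Adamtsl5 in 6E13 against cKO in the LV had 0.37 as reported and -0.029 by limma.

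Of 810 values of 135 gene results under the other settings, 714 kept their direction and side of the threshold, 95 lost the call and 1 turned direction, and of 983 values with 1 animal left out 817 kept both and 166 lost the call. The cause of these moves was not tested. Members counted as expressed were 48 (LV) and 49 (RV) on plain library sizes, 53 in each at a mean of 0.5 CPM, and 49 and 51 at 1 CPM in any arm. Arms of 2 to 5 animals limit what could be called, and members under 1 CPM lie near the limit of depth.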
